A study of Homo sapiens with 2 samples.

Results

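The genes for the leukocyte adhesion molecules ICAM1, VCAM1 and CD58 and for the immune checkpoint ligands CD47, CD274, PDCD1LG2, PVR, CD80, CD86 and ICOSLG were followed in TFK1 cells, an established human cholangiocarcinoma (CCA) line, after knockdown of the methyl-CpG-binding protein MBD2. Each gene was taken as the row of its symbol in the deposited tables of read counts and of TPM (reads per gene scaled to gene length and library size), which gave 10 of 56638 genes. Of the 10, 7 had at least 10 reads summed over both libraries, as did 17545 genes in all. The genes were chosen by their counts in these same 2 libraries, ICAM1 and VCAM1 among them for their difference between the conditions, so their values are given as a description and with no test. The first library is from TFK1 cells carrying a shRNA against MBD2 (labelled T-shMBD2 and TSM1; the labels do not say which shRNA, and TSM1 is taken here to be MBD2-sh1), and the other from TFK1 cells carrying a negative control shRNA (labelled T-shNC, here sh-NC), with no other treatment in either. The study delivered its shRNAs in lentiviral vectors and selected the cells for resistance, so each library averages a selected pool of cells. Each condition has 1 library and MBD2 was targeted by 1 shRNA, so no difference here has a replicate check.

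Leukocytes hold on to other cells through integrins and CD2, which bind ICAM1, VCAM1 and CD58 on the partner cell, and cytokines such as TNF are known to raise ICAM1 and VCAM1 through NF-kB. T cells and macrophages also read ligands that set their activity: CD80, CD86 and ICOSLG bind CD28, CTLA4 and ICOS, CD274 (PD-L1) and PDCD1LG2 (PD-L2) bind PDCD1, PVR binds TIGIT, CD226 and CD96, and CD47 restrains phagocytes through SIRPA. In bile duct cancer these molecules are studied as points of contact between the tumor and infiltrating immune cells.

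The libraries held 14728814 counts (MBD2-sh1) and 14467406 counts (sh-NC), so that 3 counts, the limit that a count of 0 allows, are 0.204 and 0.207 CPM (reads of a gene relative to all reads of its library). The knockdown left 365 counts of MBD2 in MBD2-sh1 against 1013 in sh-NC, a log2FC of -1.48. All log2FC here are MBD2-sh1 over sh-NC of the scaled counts after adding a prior of 0.5 counts, and each interval is a 95% exact (Clopper-Pearson) one of how a gene's reads divide between the libraries, which covers counting error only. Where 2 values of a gene stand together, that of MBD2-sh1 comes first. All 8 cholangiocyte and epithelial markers were read in both libraries, among them the bile duct keratins KRT7 at 1160 and 1327 TPM and KRT19 at 14.97 and 9.04 TPM, and EPCAM at 11.3 and 16.9 TPM.

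ICAM1 and VCAM1, the ligands of the leukocyte integrins, were read in MBD2-sh1 and had no counts in sh-NC. ICAM1 (ENSG00000090339, GRCh38 chr19:10270835-10286615, plus strand), which the integrins ITGAL-ITGB2 and ITGAM-ITGB2 bind during firm adhesion, had 187 counts in MBD2-sh1 against 0 in sh-NC, or 10.1 against 0 TPM. Against 3 counts for the sh-NC library it was at least 62.0-fold higher, a bound that leaves out counting error, while the interval of the fold started at 49.9. VCAM1 (ENSG00000162692, GRCh38 chr1:100719742-100739045, plus strand), the ligand of the integrin ITGA4-ITGB1 and best known from activated endothelium, had 92 counts in MBD2-sh1 against 0 in sh-NC, or 4.16 against 0 TPM. Against the same limit it was at least 30.5-fold higher, and the interval of the fold started at 24.3. These 2 genes lay furthest apart between the libraries of the 10, and in bulk RNA a change in the share of cells that express a gene and a change in its RNA per cell cannot be told apart. CD58 (ENSG00000116815, GRCh38 chr1:116514535-116571039, minus strand), which binds CD2 on T and NK cells, had 140 counts in MBD2-sh1 against 162 in sh-NC, or 18.4 against 21.9 TPM. Its log2FC was -0.22 with an interval from -0.56 to 0.12, which includes 0, and it was the only gene of the 7 that was lower in MBD2-sh1.

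**Figure D1:**
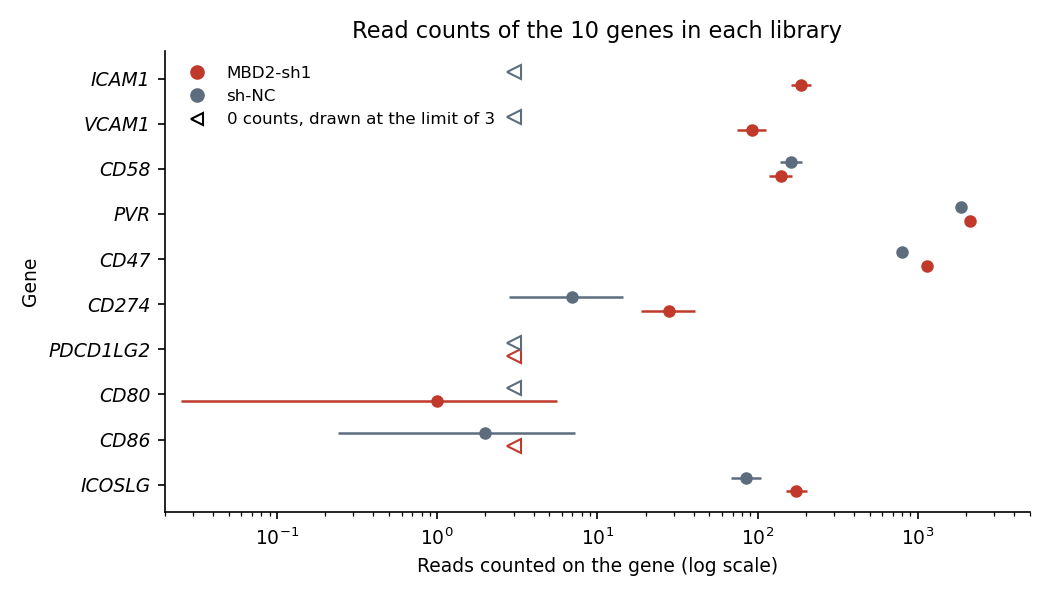
Reads counted on each of the 10 genes in MBD2-sh1 (red) and sh-NC (grey) on a log axis, with exact 95% Poisson intervals, and with counts of 0 drawn as open triangles at the limit of 3. ICAM1 and VCAM1 have 187 and 92 counts in MBD2-sh1, with triangles in sh-NC, while the points of CD58, PVR and CD47 lie close together.

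Because ICAM1 and VCAM1 differed the most, the sequence before their start sites is shown for the site that NF-kB is known to bind. RefSeq (GRCh38.p14) gave windows from 250 bases before to 50 after the start for 9 of the 10 genes, all but PDCD1LG2, with 2 windows for CD86. The letters GGNNNTTCC, a loose form of the NF-kB site, are in capitals in a stretch of ICAM1 (chr19:10270924-10270953, plus strand) that begins 196 bases before the RefSeq start. This stretch lies inside the longer ICAM1 transcript of GENCODE 29, which starts further upstream. The match to the stricter NF-kB consensus is in capitals in the 250 bases before the start of VCAM1 (chr1:100719492-100719741, plus strand), and its first base is 62 bases before the start.
ICAM1: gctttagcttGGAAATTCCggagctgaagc
VCAM1: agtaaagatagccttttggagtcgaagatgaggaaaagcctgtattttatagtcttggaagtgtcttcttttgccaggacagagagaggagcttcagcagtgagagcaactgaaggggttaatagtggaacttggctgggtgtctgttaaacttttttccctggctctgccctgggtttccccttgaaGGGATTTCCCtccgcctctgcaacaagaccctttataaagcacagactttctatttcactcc

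The strict NF-kB consensus, searched on both strands of the whole windows, was present in 2 of the 10 windows, those of VCAM1 and the downstream one of CD86, and in 5.91% of 35116 promoter windows of RefSeq. ICAM1 did not hold those letters in its window. The loose letters GGNNNTTCC, which overlap part of the consensus and were added after the ICAM1 sequence had been seen, were present in 6 of the 10 windows, those of ICAM1, VCAM1, CD58, CD274, PVR and the downstream one of CD86, and in 20.1% of all windows. The 6 thus included CD58 and PVR, whose counts lay close together in the 2 libraries, and CD86, which was at or under 3 counts. A match is a run of letters and was not tested as a binding site.

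PVR and CD47 carried the most RNA of the 10 genes in MBD2-sh1 and lay within 1 of their sh-NC level on the log2 scale. PVR (ENSG00000073008, GRCh38 chr19:44643798-44663583, plus strand), the poliovirus receptor and ligand of TIGIT and CD226, had 2116 counts in MBD2-sh1 against 1867 in sh-NC, or 111 against 101 TPM, and a log2FC of 0.17 (interval 0.08 to 0.26). CD47 (ENSG00000196776, GRCh38 chr3:108043094-108091862, minus strand), the signal against phagocytosis, had 1147 and 796 counts, or 29.5 and 21.0 TPM, and a log2FC of 0.52 (interval 0.39 to 0.65). Both intervals lay above 0 and below 1. A gene that the tables name CEACAM19 overlaps PVR on the same strand, with 200 and 244 counts, so part of either count may belong to the other gene.

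Of the PDCD1 ligands, CD274 was read at a low level and PDCD1LG2 not at all. CD274 (ENSG00000120217, GRCh38 chr9:5450503-5470566, plus strand), which restrains T cells through PDCD1, had 28 counts in MBD2-sh1 against 7 in sh-NC, or 1.34 against 0.345 TPM. It was 3.98-fold higher with an interval from 1.70 to 10.8, which on the log2 scale is 1.92 (interval 0.76 to 3.43), so the line at 1 lay inside it, and with log2 of TPM plus 1 its value was 0.80. PDCD1LG2 (ENSG00000197646, GRCh38 chr9:5510570-5571254, plus strand), its neighbor, which begins 40.0 kb from the end of CD274, had 0 counts in both libraries. CD274 is known to be induced by interferon gamma through IRF1, and the letters GAAANNGAA of the IRF site are in capitals in the bases that precede its GENCODE 29 transcripts (chr9:5450292-5450502, plus strand), where 2 matches on the opposite strand overlap.
CD274: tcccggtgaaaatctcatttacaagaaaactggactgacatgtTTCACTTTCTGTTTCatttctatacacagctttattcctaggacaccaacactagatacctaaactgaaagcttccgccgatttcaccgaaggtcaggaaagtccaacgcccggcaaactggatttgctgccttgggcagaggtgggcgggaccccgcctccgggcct

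GAAANNGAA was present on either strand in 2 of the 10 windows, those of CD274 and VCAM1, and in 8.11% of all windows. The letters TTCNNNGAA were present in ICAM1 and CD274, or 2 of the 10 windows, and in 7.66% of all windows. The windows of CD47, CD80 and ICOSLG held none of the 4 sets of letters searched.

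Of the ligands for CD28, CTLA4 and ICOS, only ICOSLG was read above 3 counts. ICOSLG (ENSG00000160223, GRCh38 chr21:44217014-44240966, minus strand), which costimulates T cells through ICOS, had 175 counts in MBD2-sh1 against 85 in sh-NC, or 4.32 against 2.15 TPM. It was 2.05-fold higher, a log2FC of 1.03 with an interval from 0.65 to 1.42, and with log2 of TPM plus 0.1 its value was 0.97, on the other side of 1. RefSeq annotates a copy, LOC102723996, on the same chromosome whose promoter window shares 277 bases in a row with that of ICOSLG out of 300, so reads may have been split between the copies and the level of ICOSLG is uncertain. CD80 (ENSG00000121594, GRCh38 chr3:119524293-119559602, minus strand), the ligand of CD28 and CTLA4 on antigen-presenting cells, had 1 count in MBD2-sh1 and 0 in sh-NC. CD86 (ENSG00000114013, GRCh38 chr3:122055366-122121139, plus strand), which binds the same receptors, had 0 and 2 counts. No fold is given for CD80, CD86 and PDCD1LG2, which were at or under 3 counts in both libraries, and a difference in them was not detectable at this depth.

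Across genes, levels can be compared per length, on the TPM scale. In sh-NC the order was PVR (101 TPM), CD58 (21.9 TPM), CD47 (21.0 TPM), ICOSLG (2.15 TPM), CD274 (0.345 TPM) and CD86 (0.133 TPM), and the Poisson intervals of CD58 and CD47 overlapped, as did those of CD274 and CD86. In MBD2-sh1 the order was PVR (111 TPM), CD47 (29.5 TPM), CD58 (18.4 TPM), ICAM1 (10.1 TPM), ICOSLG (4.32 TPM), VCAM1 (4.16 TPM), CD274 (1.34 TPM) and CD80 (0.0642 TPM), and of these neighbors the intervals of ICOSLG and VCAM1 overlapped. ICAM1 thus stood in the fourth place in MBD2-sh1, at a TPM higher than that of 40.3% of the genes with at least 10 counts there, whose median was 15.6 TPM. PVR alone made up 62.1% of the summed 179 TPM of the 10 genes in MBD2-sh1 and 68.9% of the 146 TPM in sh-NC. CD274 was the lowest of the 7 genes in MBD2-sh1, where the TPM of PVR was 82.8 times its own, against 292 times in sh-NC.

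**Figure D2:**
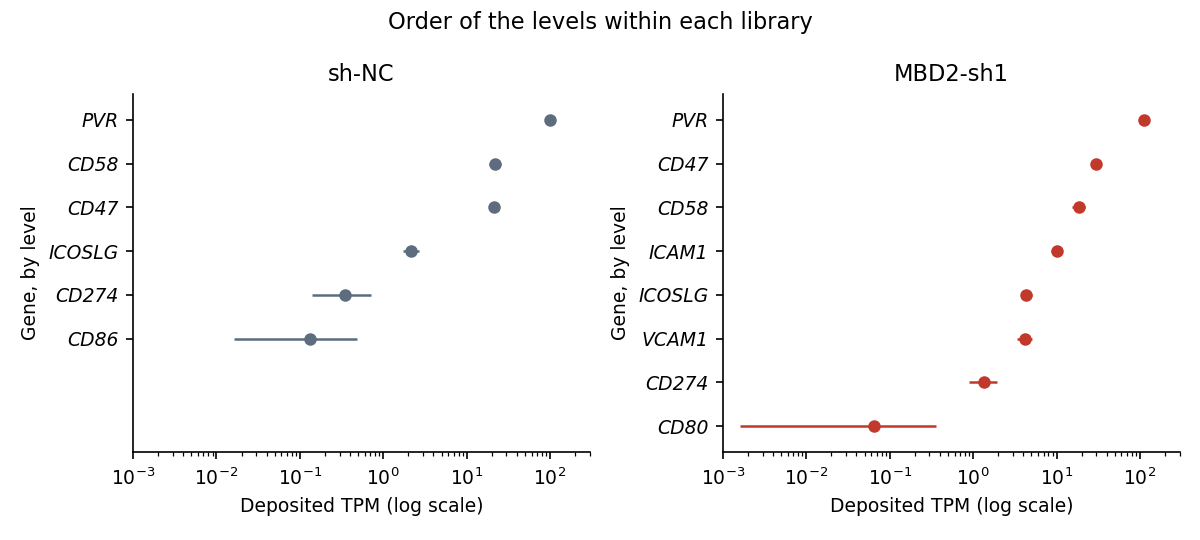
Deposited TPM on a log axis for the genes with at least 1 count, ordered by level in sh-NC (left) and MBD2-sh1 (right), with 95% Poisson intervals of the count scaled to TPM. PVR is highest in both libraries at 101 and 111 TPM, and ICAM1 (10.1 TPM) and VCAM1 (4.16 TPM) appear in MBD2-sh1 between CD58 and CD274.

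Of the 7 genes, 4 had a log2FC above 1 (ICAM1, VCAM1, CD274 and ICOSLG), where 5.48% of all 17545 genes did, and 0 had a log2FC below -1, where 5.07% did. Since the genes were chosen with these values known, nothing is read from that count. The other 3, CD47, PVR and CD58, lay between -1 and 1. The intervals of ICAM1 and VCAM1 lay wholly above 1, and those of CD274 and ICOSLG included 1. The median log2FC of the 7 was 1.03, with ICAM1 and VCAM1 at their bounds as well, and the median of all genes was -0.01. By fitted log2FC ICAM1 was the highest of the 17545 genes and VCAM1 the 4th, although these fitted values rest on the prior count, CD274 was the 291st and ICOSLG the 934th.

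**Figure D3:**
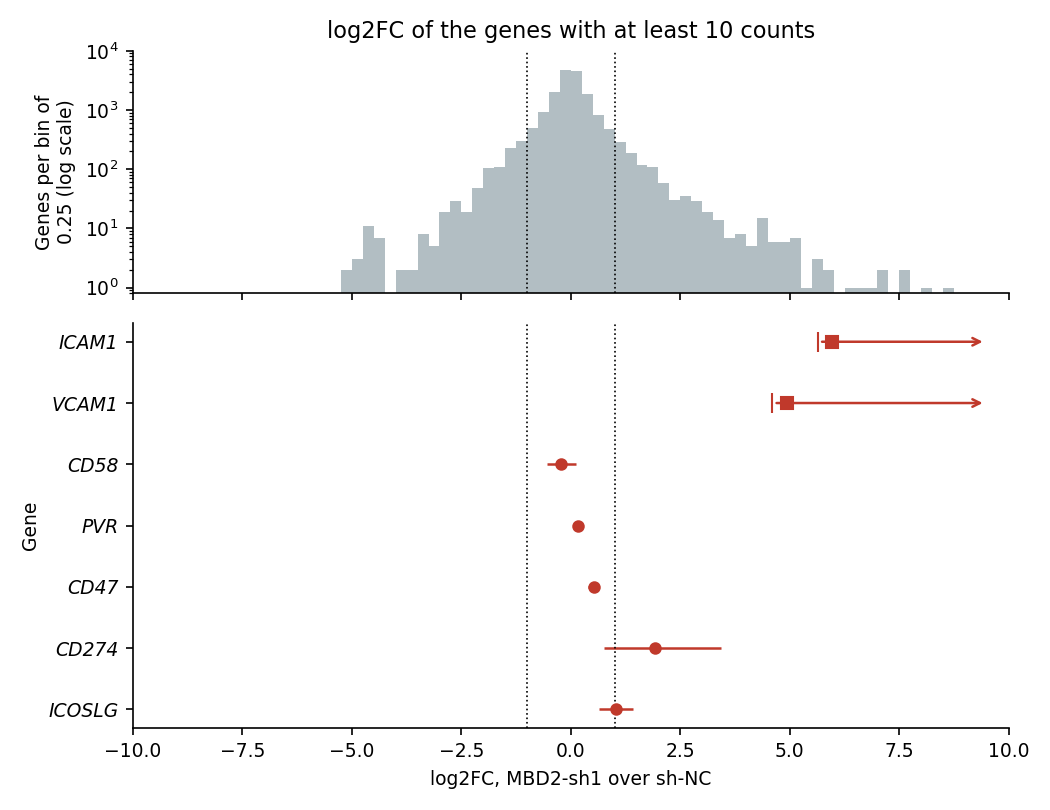
Upper panel, the number of genes in each bin of 0.25 of fitted log2FC for all genes with at least 10 counts (log axis); lower panel, the log2FC of 7 genes with 95% intervals, where squares are the lower bounds of ICAM1 and VCAM1 against 3 counts, ticks the start of their intervals and arrows their open upper ends. ICAM1 and VCAM1 lie beyond 4.5, CD274 and ICOSLG cross the dotted line at 1, and CD47, PVR and CD58 lie between the lines.

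Genes that went from no counts in sh-NC to more than 3 in MBD2-sh1 numbered 333, of which 34 had at least 10 counts and 5 at least 50. ICAM1 had the most counts of them and VCAM1 the third most. Outside the 10, the 5 genes whose counts came nearest to those of ICAM1 on a log scale, all with 0 counts in sh-NC, were SAA1 with 94 counts, an acute-phase protein, TNFRSF9 with 73, a costimulatory receptor of T cells, C15orf48 with 69, CX3CL1 with 49, a membrane-bound chemokine that also holds leukocytes, and IL6 with 39, a cytokine. In the opposite direction, 326 genes had no reads in MBD2-sh1 and more than 3 in sh-NC, of which 22 had at least 10 and 0 at least 50.

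Of 18 further genes for cell adhesion molecules, 11 had at least 10 counts, with a median log2FC of -0.01. None of the 11 lay above 1 or below -1 (5.48% and 5.07% of all genes did). ALCAM, the ligand of CD6 and the most read of them, had 5157 counts in MBD2-sh1 against 7675 in sh-NC, a log2FC of -0.58. ICAM3 had 101 and 85 counts and ICAM5 had 14 and 14. The endothelial selectin SELE, at 5 and 0 counts, and MADCAM1, at 6 and 2 counts (2.98-fold higher, interval 0.533 to 30.2), were below the minimum of 10.

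Of the 15 other genes of the B7 and butyrophilin family 9 had at least 10 counts, 0 of these were above 1 or below -1, and their median was -0.02. CD276 (B7-H3), the most read of them, had 800 and 693 counts and a log2FC of 0.20 (interval 0.05 to 0.35), BTN3A3 had the highest log2FC of the 9 at 0.88, and C10orf54, which encodes VISTA, the lowest at -0.63. Below the minimum of 10 counts, HHLA2 had 8 and 0 counts and was at least 2.65-fold higher against 3 counts for the sh-NC library, with an interval of the fold that started at 1.70. Among 28 other checkpoint genes, mostly ligands of T and NK cell receptors, 19 had at least 10 counts, 2 lay above 1 (10.5%, against 5.48% of all genes), none below -1, and the median was 0.32, or 0.01 over genes with at least 100 counts. The 2 were TNFSF14 (LIGHT), which binds the receptors TNFRSF14 and LTBR, with 74 and 9 counts and a log2FC of 2.96 (interval 2.03 to 4.22), and PVRL4 (nectin-4) with 30 and 14 counts and a log2FC of 1.06 (interval 0.13 to 2.12). PVRL2, the partner of PVR as a ligand of CD226, had 1849 and 1383 counts and a log2FC of 0.41.

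**Figure D4:**
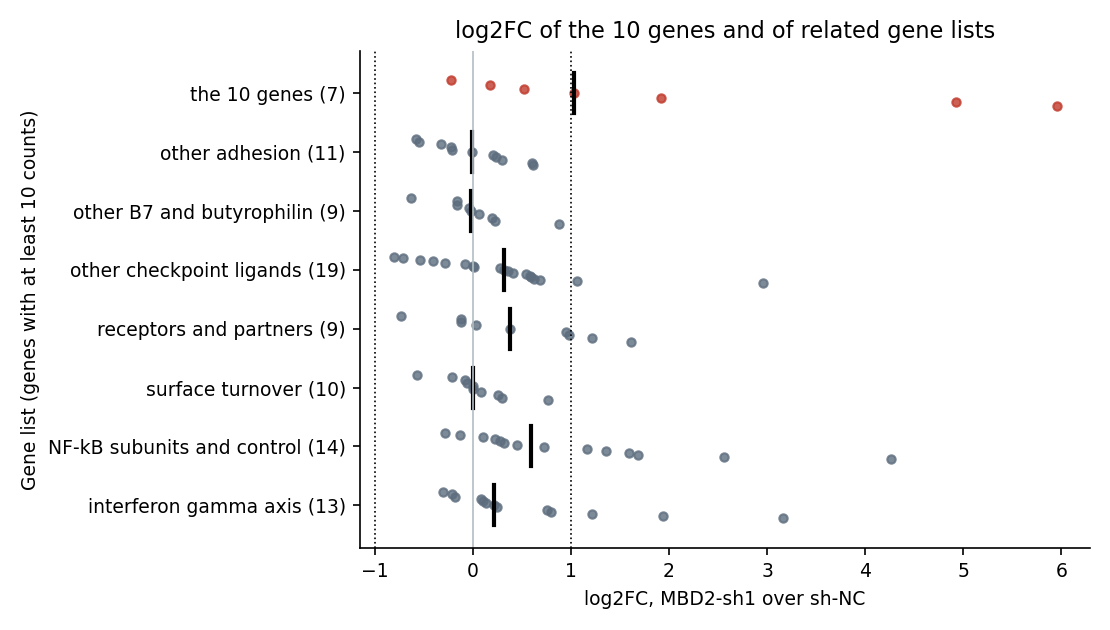
Each point is the log2FC of a gene with at least 10 counts. The black bar is the median of these genes in a list, and the number in brackets is how many of them the list has. ICAM1 and VCAM1 are drawn at their lower bounds. The adhesion, B7 and surface turnover lists lie between -1 and 1, and 6 of the 14 genes of NF-kB and its control lie above 1.

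Of 11 gene products known to hold, modify or cut these ligands at the cell surface, 10 were found, with a median of -0.0015. Of the 10, 0 were above 1 or below -1 (5.48% and 5.07% of all genes were). CMTM6, which keeps CD274 from degradation, had 1306 counts in MBD2-sh1 against 1299 in sh-NC. ADAM10, a protease that sheds surface proteins, had 3981 and 5860 counts and a log2FC of -0.57, and ADAM17, a related protease, had a log2FC of 0.08. QPCTL, the enzyme that modifies CD47, had 203 and 164 counts and a log2FC of 0.30 (interval -0.01 to 0.60), and its relative QPCT had 922 and 539 counts and the highest log2FC of the list at 0.77. Of 17 receptors and partners of the 10 genes, 9 had at least 10 counts, 2 were above 1 (22.2%, against 5.48% of all genes) and 0 below -1, with a median of 0.38, which was -0.05 over genes with at least 100 counts. These 2 were ITGAX, with 41 and 13 counts, and ITGA4, a partner of VCAM1, with 45 and 19, and both intervals, from 0.72 to 2.67 and from 0.43 to 2.09, included 1. PDCD1, CD28, CTLA4, ICOS and CD2 had 0 counts in both libraries and TIGIT had 0 and 1, while CD226, a receptor of PVR, had 16 and 8 counts and the integrin chain ITGAL had 25 and 27. ITGB2, the chain that ITGAL and ITGAM share as receptors of ICAM1, had 92 and 46 counts and a log2FC of 0.98 (interval 0.47 to 1.54). THBS1, a partner of CD47, had the lowest log2FC of the 9, with 549 and 910 counts and -0.74. SIRPA, which binds CD47, had 796 and 862 counts and a log2FC of -0.12.

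The pathways known to drive ICAM1, VCAM1 and CD274 were read in both libraries. Of 14 genes for NF-kB subunits, their regulators and the IkB kinase, 6 (42.9%, against 5.48% of all 17545 genes) had a log2FC above 1, none below -1, and the median was 0.59. TNFAIP3 (A20), a feedback inhibitor, had 1571 and 81 counts and a log2FC of 4.26 (interval 3.95 to 4.61). The subunit RELB had 473 and 79 counts and a log2FC of 2.57, and the subunits NFKB2 and NFKB1 had a log2FC of 1.59 and 1.17. NFKBIA, the inhibitor that holds NF-kB in the cytoplasm, had 1870 and 723 counts and a log2FC of 1.36, and BIRC3 had 2274 and 704 counts and a log2FC of 1.68. All 6 of these intervals lay wholly above 1. RELA, which pairs with NFKB1, had 1141 and 938 counts and a log2FC of 0.27.

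Of 13 genes of the interferon gamma axis, 3 (23.1%, against 5.48% of all genes) had a log2FC above 1, none below -1, and the median was 0.21. IFNGR1, a receptor chain, had 2340 and 604 counts and a log2FC of 1.94 (interval 1.82 to 2.08). CIITA, the regulator of MHC class II genes, had 13 and 1 counts, and SOCS1, a feedback inhibitor, had 10 and 4, so both rested on few reads. IRF1 had 520 and 297 counts and a log2FC of 0.80. JAK2, which lies near CD274 on chromosome 9, had 318 and 389 counts and a log2FC of -0.30. The part of both pathways in the levels of ICAM1, VCAM1 and CD274 was not tested.

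The nearest neighbors of the 10 genes on the chromosome were taken among genes with at least 10 counts, which gave 19 genes. Nearer genes with fewer counts were passed over, PDCD1LG2 beside CD274 among them. Of the 19, 1 (5.26%, against 5.48% of all genes) had a log2FC above 1, a share near that of all genes. None had one below -1 (5.07% of all genes did). That 1 is CD274 as the neighbor of PDCD1LG2. Beside ICAM1, MRPL4 had 295 and 246 counts and a log2FC of 0.25, and ICAM5 had 14 and 14 counts. Beside VCAM1, CDC14A had 108 and 93 counts and a log2FC of 0.21, and EXTL2 had 344 and 409 counts and a log2FC of -0.26. Beside CD274, PLGRKT had 308 and 321 counts and a log2FC of -0.07. Overlapping genes share ground with 4 of the 10 and are not among the 19. The 2 genes opposite ICAM1 had at most 2 counts, and TIMMDC1 opposite CD80 had 1088 and 1008 (log2FC 0.10). NAP1L4P1 inside CD58 had 18 and 5 counts (log2FC 1.74), and CTB-171A8.1 opposite PVR had 24 and 48 (log2FC -0.99). Whether counting used the strand is not given in the sources used here, so reads of pairs on opposite strands cannot be told apart. For pairs on the same strand, such as NAP1L4P1 and CD58, the strand would not separate the reads.

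MBD2 binds methylated CpG, and the 10 promoter windows of 9 genes differed widely in CpG content. The ratio of observed to expected CpG in the window was 0.77 for ICAM1, with 24 CpG sites, and 0.29 for VCAM1, with 5, where the median of all windows was 0.58 and 14 sites. It was 0.91 for CD274 and 0.95 for ICOSLG, and it was 1.01 for CD47, 0.995 for CD58 and 0.80 for PVR. The lowest ratios were those of VCAM1, CD80 (0.32) and the 2 windows of CD86 (0.30 and 0.20). The 4 genes above a log2FC of 1 thus ranged from 0.29 to 0.95, and the range of the 3 between -1 and 1 was 0.80 to 1.01. Methylation of these windows was not analysed here.

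Because ICAM1, VCAM1, CD80 and CD86 are also genes of endothelium and leukocytes, markers of other cell types were read in the same libraries. Of 12 leukocyte markers, 11 had 3 or fewer counts in both libraries, PTPRC (0 and 1 counts), CD3E (0 and 0) and LYZ (0 and 0) among them, and the 12 summed to 1.82 TPM in MBD2-sh1 against 3.47 TPM in sh-NC, mostly from NKG7 with 7 and 13 counts. Of 9 endothelial markers, 8 had 3 or fewer counts in both libraries, with CDH5 at 0 and 1, VWF at 0 and 0 and KDR at 0 and 0, and the summed level was 0.0686 and 0.735 TPM, mostly from CLDN5 with 1 and 8 counts. Of 8 fibroblast markers, 5 had 3 or fewer counts in both libraries, and the summed level was 1.181 and 1.005 TPM. Of the 2 with at least 10 counts, 1 lay above 1 and 0 below -1 (5.48% and 5.07% of all genes did). That 1 was THY1, with 14 and 6 counts and a log2FC of 1.15 (interval -0.26 to 2.88). The other, LUM, had 5 and 6 counts and a log2FC of -0.25 (interval -2.32 to 1.70). COL3A1, below the minimum of 10, had 1 and 6 counts. The part of other cell types in the levels of the 10 genes was not tested. Of 8 cholangiocyte and epithelial markers, 0 lay above 1 or below -1, where 5.48% and 5.07% of all genes did. Their median log2FC was -0.35, with KRT19 (0.75) and CDH1 (0.40) higher and the other 6 lower in MBD2-sh1. Their summed levels were 4837 and 6047 TPM.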

How the data were processed

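RNA of the TFK1 cells was sequenced in 1 library per condition. The authors deposited read counts per gene, not normalized, and TPM per gene. Per the submitters' processing notes, fastp, HISAT2 2.1.0, featureCounts, DESeq 1.18.1 and GRCh38.p13 were used. The deposited coordinates matched a start or end of GENCODE 29 (GRCh38) in 356 of 52234 rows, so GENCODE 29 coordinates joined by Ensembl identifier are printed, and the deposited ones served only to find neighbors. Both tables repeat the values of a symbol on each of its identifiers. Repeats were dropped, which left 56638 genes of 63677 rows, and the deposited TPM summed to 1000000 per library. Counting of reads shared by near-identical copies is not given in the sources used here.

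Effective library sizes were computed with TMM of edgeR 4.0.16 (R 4.3.3), without its tests. Log2FC used a prior of 0.5 counts and the genes whose counts in the 2 libraries add up to at least 10. Intervals came from scipy 1.17.1. Replicates being absent, no p-value is given. Genes named are the 10, MBD2, list genes past a log2FC of 1 or -1 or with the most reads, their direct partners, chromosomal neighbors, and the 5 genes at 0 in sh-NC nearest to ICAM1; further list genes were added with their values known. The 10 genes and all lists were chosen with earlier results of these data known, among them the higher NF-kB targets. RefSeq promoter windows (GRCh38.p14) were matched by symbol. Alternatives were DESeq2 1.42.0 size factors, total counts, upper quartile, log2 of TPM plus 0.1 or 1, priors of 2 and 0.1, no filter, at least 100 counts, all rows kept, and a window of the 250 bases before the start.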

Additional observations from a re-analysis of the deposited data

How the results depend on the processing

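Of 68 values of single genes under 10 alternatives, 0 changed direction and 66 lay within the counting interval of the value reported. The other 2, with log2 of TPM plus 1, were ICAM1 at 3.47 and VCAM1 at 2.37, where the pseudocount is large beside the level. The number of the 10 genes above a log2FC of 1 was 4 with DESeq2 size factors, total counts, upper quartile, both priors and all rows kept, 3 with TPM plus 0.1 (without ICOSLG), and 2 with TPM plus 1 (ICAM1 and VCAM1). With at least 100 counts it was 2 (ICAM1 and ICOSLG), since VCAM1 and CD274 have fewer reads, and with no filter it was 5, CD80 on 1 read being the addition. The number below -1 was 1 with no filter, CD86 on 2 reads. Over all genes, 961 above 1 and 890 below -1 became 374 and 340 with TPM plus 1, 213 and 127 with at least 100 counts, and 4523 and 4303 with no filter. CD274 ranged from 0.80 to 1.98 and ICOSLG from 0.75 to 1.05, so their side of 1 depends on the scale, while CD47 (0.47 to 0.54), PVR (0.14 to 0.19) and CD58 (-0.25 to -0.20) stayed within 1. The fitted log2FC of ICAM1 reached 10.87 with a prior of 0.1, and it measures no fold because sh-NC has 0 counts. In the 250 bases before the start only, the NF-kB consensus was in 2 of the 10 windows and 5.21% of all windows, and GGNNNTTCC in 5 of 10 and 17.1%. Depth limits CD80, CD86 and PDCD1LG2, for which 3 counts are 0.204 CPM in MBD2-sh1. No paired analysis was possible because there are only 2 libraries, 1 of each kind.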
